A study of Mus musculus with 6 samples.

Results

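The Slc22 organic ion transporters are a family of membrane carriers that move charged small molecules in and out of cells. The 9 genes described here, Slc22a3, Slc22a5, Slc22a7, Slc22a15, Slc22a18, Slc22a23, Slc22a27, Slc22a28 and Slc22a30, were chosen by symbol from a count table of 56674 rows, with earlier results of the same comparison in view. That table holds 26 Slc22 rows. All 9 chosen genes passed the filter on low counts, as did 7 of the other 17 Slc22 rows. Because the choice was made with the diet comparison known, differences of these 9 genes between the diets are given as descriptions. Counts of those past a threshold stand beside the share over all genes, and nothing is read from them.

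The study sequenced poly(A) RNA of the liver from male C57BL/6 mice, a common inbred strain, at 71 weeks of age. The first group of 3 samples (PP-MP) came from mice on chow containing polypropylene microplastic, and the second group of 3 samples (control) from mice on normal chow. The sources used here give no dose, particle size or duration of feeding. One protocol field names PS-MP for both groups, so the groups follow the titles. Nothing in the labels states that each sample was a separate animal, and the errors below measure the spread between samples.

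In the liver, carriers of this family sit mostly in the plasma membrane of hepatocytes. Organic cation transporters (OCT) take up positively charged drugs and monoamines, the OCTN carriers handle carnitine and related zwitterions, and organic anion transporters (OAT) exchange negatively charged drugs and metabolites. Mice carry a run of extra OAT-like genes on chromosome 19 that arose by duplication in rodents, and the substrates of most of these are little characterised.

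Slc22a27, Slc22a28, Slc22a29 and Slc22a30 lie next to each other among the coding genes of chromosome 19, between Slc22a26 and Slc22a8. Slc22a28 and Slc22a30 are close copies. Their longest open reading frames in the GENCODE M21 transcripts are 1659 bases each and are identical at 98.8% of aligned bases, and Slc22a27 and Slc22a29 are identical at 97.3%. Of the distinct 50-base stretches of the Slc22a28 transcripts, 53.3% occur unchanged in Slc22a30, and 31.0% of those of Slc22a30 occur in Slc22a28. The counts of these genes are therefore uncertain, since the sources used here do not say how reads with more than one match were counted.

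The copies are alike upstream as well. The promoter windows of Slc22a28 and Slc22a30, 250 bases before to 50 bases after the annotated start, are printed because both genes had a lower mean in PP-MP livers, Slc22a28 with overlap between the diets, and the windows are almost the same text. They come from RefSeq on build GRCm38.p6, both on the minus strand, at chr19:8131933-8132232 for Slc22a28 and chr19:8405056-8405355 for Slc22a30. Capitals mark bases that differ or have no partner in the alignment of the pair.
Slc22a28: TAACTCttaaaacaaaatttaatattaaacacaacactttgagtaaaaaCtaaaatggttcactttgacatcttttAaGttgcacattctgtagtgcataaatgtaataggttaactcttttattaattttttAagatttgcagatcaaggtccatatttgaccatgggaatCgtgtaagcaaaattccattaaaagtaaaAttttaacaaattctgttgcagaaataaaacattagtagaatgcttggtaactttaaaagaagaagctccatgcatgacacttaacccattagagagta
Slc22a30: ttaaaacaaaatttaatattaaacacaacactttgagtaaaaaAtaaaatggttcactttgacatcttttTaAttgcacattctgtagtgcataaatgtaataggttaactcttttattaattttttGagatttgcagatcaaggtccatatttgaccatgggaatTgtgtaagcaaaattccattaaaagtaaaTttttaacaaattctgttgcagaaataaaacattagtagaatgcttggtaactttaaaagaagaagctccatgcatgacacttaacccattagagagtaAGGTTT
Over 294 aligned bases the windows differ at 6, and 6 bases at one end of each have no partner because the annotated starts are offset. The aligned identity is 98.0%, against 79.3% between Slc22a29 and Slc22a30 and 77.2% between Slc22a28 and Slc22a29.

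RefSeq windows were matched for 8 of the 9 genes, and Slc22a7 is named only. Some of the windows are CpG-rich. Slc22a23, Slc22a5 and Slc22a15 hold 38, 34 and 29 CG dinucleotides, against a median of 7 over 32851 mouse promoter windows. Slc22a3, Slc22a27, Slc22a18, Slc22a28 and Slc22a30 hold 5, 4, 2, 1 and 0. The Slc22a5 window, at chr11:53891654-53891953 on the minus strand of GRCm38.p6, is printed as an example of the CpG-rich kind, with CG in capitals.
Slc22a5: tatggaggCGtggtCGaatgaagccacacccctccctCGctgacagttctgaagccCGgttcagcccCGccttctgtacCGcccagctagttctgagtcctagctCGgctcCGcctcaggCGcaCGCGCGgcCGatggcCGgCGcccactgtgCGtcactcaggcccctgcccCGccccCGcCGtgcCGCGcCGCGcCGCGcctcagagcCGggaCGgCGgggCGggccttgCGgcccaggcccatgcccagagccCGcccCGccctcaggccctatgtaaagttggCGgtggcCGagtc
It also holds 5 matches to the Sp1 box GGGCGG on either strand, a motif present in 35.7% of all windows. The following motifs, searched on both strands, were not found in the Slc22a28 or Slc22a30 window. These were AGGTCA (nuclear receptor half-site, in 16.3% of all windows), TATAAA (13.6%), CCAAT (37.4%), GGGCGG (35.7%), TGACNNNGC (antioxidant response core, 12.4%), GCGTG (dioxin response core, 32.4%), TTGCGCAA (a C/EBP-like palindrome, 0.183%) and TTCNNNGAA (STAT5 site, 8.30%). A missing match says only that these letters are not in this window.

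Library totals ranged from 81073738 to 100252360 counts in PP-MP and from 68357478 to 112566641 in control. Levels below are in CPM, the count of a gene scaled to a fixed library size, with library sizes adjusted by trimmed-mean (TMM) factors. The liver label was checked against hepatocyte markers such as albumin, of which 9 were in the table, all detected, and whose summed level was 81337 to 90802 CPM in PP-MP and 73804 to 87334 CPM in control. Acute-phase genes summed to 39475, 10323 and 8431 CPM in PP-MP 1, 2 and 3, against 9117, 6811 and 8529 CPM in control 1, 2 and 3. Summed Kupffer cell markers reached 174 to 636 CPM in PP-MP against 132 to 175 CPM in control, with a higher fitted value in PP-MP for 10 of 10. Of 14 acute-phase genes tested, 14 were fitted above 0 with a median log2 fold change of 1.43, which was 0.41 without PP-MP 1 and 0.29 without PP-MP 1 and control 2 together. edgeR called 0 of them, with 8 higher at an unadjusted p under 0.05 against 8.05% of all genes, and DESeq2 called 2 higher, Fgl1 and Itih3, against 2.39% of all genes. Fgl1, a secreted fibrinogen-like protein, was at 601 ± 569 CPM in PP-MP and 75.5 ± 18.5 CPM in control, Itih3 at 917 ± 487 and 384 ± 30.3 CPM, and Apcs at 143 ± 134 and 45.2 ± 7.92 CPM (SD, n = 3 each). Summed neutrophil markers reached 3.15 to 26.6 CPM against 1.50 to 2.16 CPM, and lymphocyte markers 7.29 to 10.1 CPM against 10.6 to 21.2 CPM; no marker of these 4 lists was at 0 in every library. The 18S ribosomal RNA gene took 0.655% to 0.750% of counts in PP-MP. It took 2.92%, 11.2% and 1.15% in control 1, 2 and 3. The part of these shifts in the values below was not tested, and in bulk RNA fewer cells of a type cannot be told apart from less RNA per cell.

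Levels per length were compared as RPKM, the CPM divided by the exonic length in kilobases, with lengths from GENCODE M21. Slc22a18 stood highest of the 9, with a mean of 42.7 RPKM over all 6 libraries (range 28.2 to 65.7). Slc22a5, at 9.10 to 20.2 RPKM, and Slc22a23, at 7.80 to 11.3 RPKM, came next, with ranges that overlap each other and lie below that of Slc22a18. The other 6 followed with means of 3.53 RPKM (Slc22a7), 2.71 RPKM (Slc22a30), 2.37 RPKM (Slc22a28), 2.11 RPKM (Slc22a3), 1.79 RPKM (Slc22a27) and 1.13 RPKM (Slc22a15), and each overlaps its neighbour in this order. Slc22a15 has 14239 exonic bases but 1632 coding bases, and per coding length it moved from the ninth place to the fourth. Other places moved too, with Slc22a23 above Slc22a5, and Slc22a3 and Slc22a30 above Slc22a7. Slc22a18 stayed highest. As a share of the summed RPKM of the family, the 9 genes made up 28.8% to 34.8% in PP-MP and 27.2% to 32.1% in control.

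**Figure D1:**
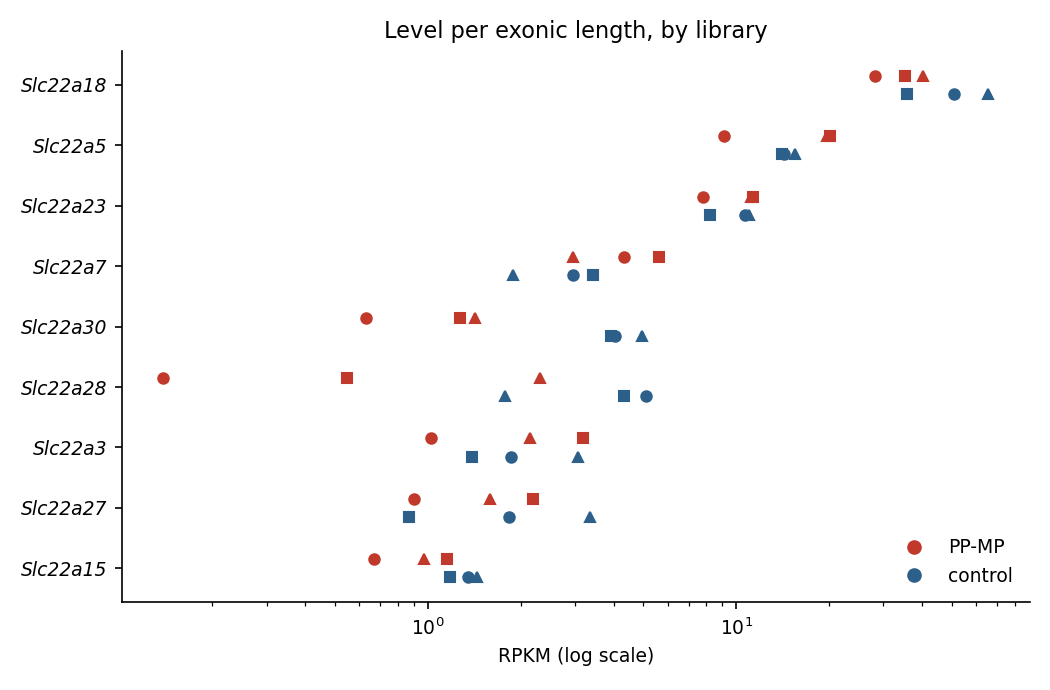
Level of each of the 9 transporters in RPKM (log axis) in the 3 PP-MP libraries (red, upper row of each gene) and the 3 control libraries (blue, lower row), with circle, square and triangle for replicates 1, 2 and 3. Slc22a18 lies apart at the top, Slc22a5 and Slc22a23 overlap, and the other 6 form an overlapping chain.

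Across all genes edgeR called 2 of 18284 (0.0109%) at an adjusted p under 0.05. Of the 9 transporters it called 0, with 1 at an unadjusted p under 0.05 (Slc22a30), against 8.05% of all genes higher and 5.81% lower at that level. DESeq2 called 1, Slc22a30, against 1.87% of all genes called lower and 2.39% called higher. Fitted values were below 0 for 5 of the 9 and above 0 for 4, and the median over all genes tested was 0.03 on the log2 scale. For Slc22a15 and Slc22a30 the highest PP-MP library lay below the lowest control library, which held for 9.79% of all genes tested. For none of the 9 did all PP-MP libraries lie above all control libraries, which held for 12.2%. Nothing is read from these counts, since the genes were chosen with this comparison known.

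**Figure D2:**
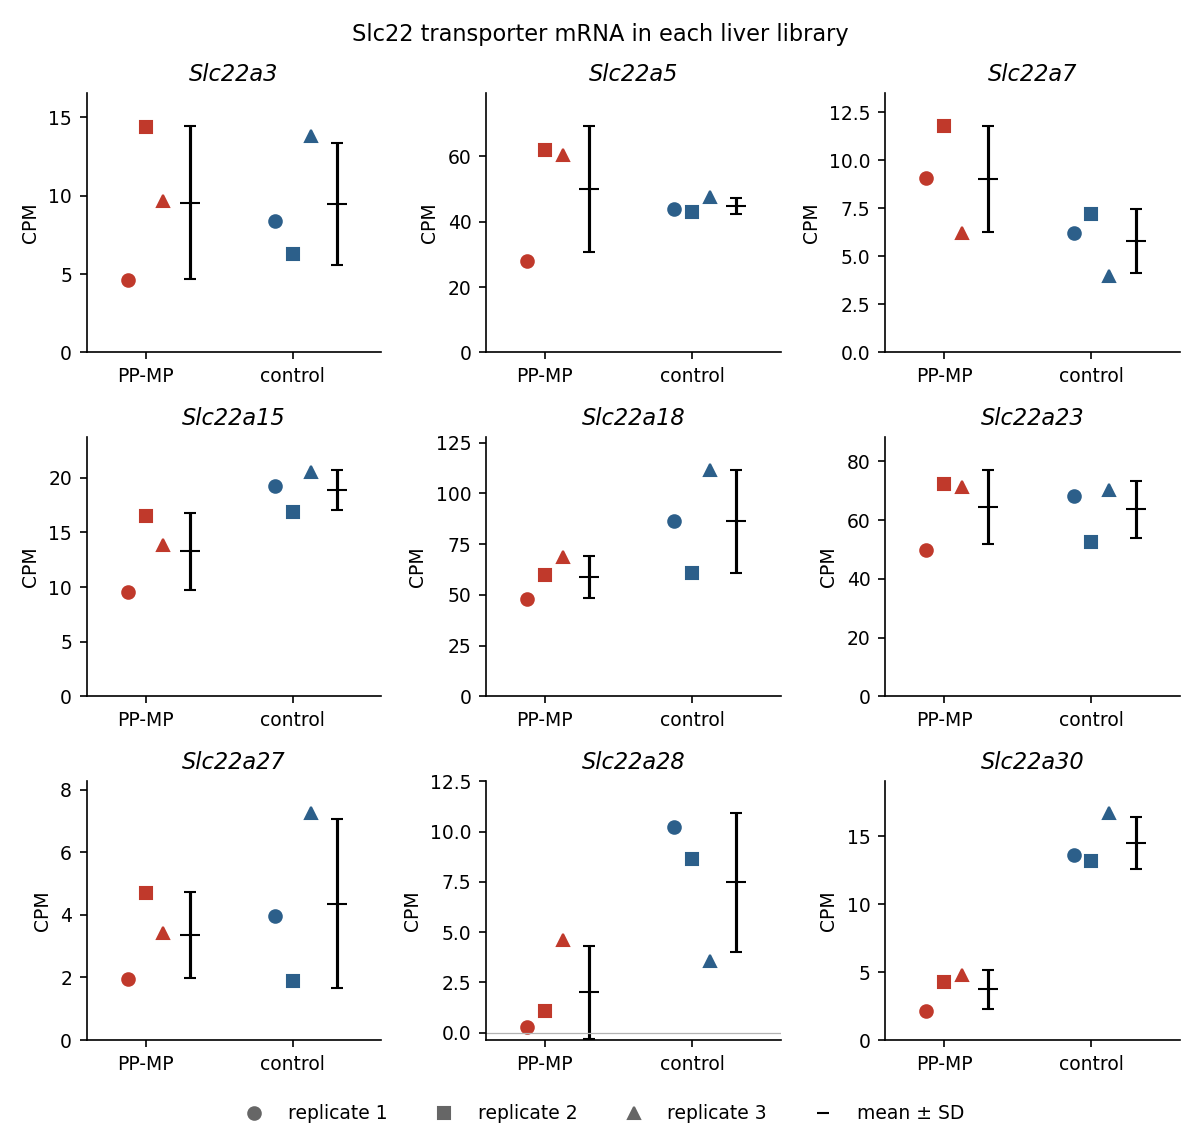
CPM of each transporter in each library, with PP-MP (red) left of control (blue), a marker shape per replicate number, and the mean ± SD beside each group (n = 3). Only in the Slc22a15 and Slc22a30 panels do the groups not overlap.

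Slc22a30, one of the OAT-like genes, was the only one of that kind among the 9 whose CPM did not overlap between the diets. It had 2.12, 4.28 and 4.79 CPM in PP-MP 1, 2 and 3, against 13.6, 13.2 and 16.7 CPM in control 1, 2 and 3. Every PP-MP library lay far below the lowest control library. The means were 3.73 ± 1.42 CPM in PP-MP and 14.5 ± 1.91 CPM in control (SD, n = 3 each), a log2 fold change of -1.96 (SE 0.32). Leaving out any single library kept it between -2.18 and -1.68.

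Slc22a28, the near copy, had 0.277, 1.10 and 4.63 CPM in PP-MP 1, 2 and 3, against 10.2, 8.64 and 3.58 CPM in control 1, 2 and 3. PP-MP 3 lay above control 3, so the groups overlap. The log2 fold change was -1.90 (SE 0.95), and it was -3.45 without PP-MP 3. The highest PP-MP library held 16.7 times the level of the lowest, where PP-MP 1 had 28 counts, against 2.86 times among control libraries. Over 12623 genes with a mean of at least 1 CPM and a count in every library, the median of this ratio was 1.34 in PP-MP and 1.40 in control.

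The ratio between the copies varied within each diet. Counts on Slc22a28 per count on Slc22a30 were 0.131, 0.256 and 0.966 in PP-MP 1, 2 and 3, against 0.752, 0.655 and 0.214 in control 1, 2 and 3. The lowest and the highest ratio were both in PP-MP, and the control ratios lay between them. Summed over the pair, to set aside how shared reads were split between them, the level was 2.40, 5.38 and 9.42 CPM in PP-MP and 23.8, 21.8 and 20.3 CPM in control. This sum, chosen after the values were seen, did not overlap between the diets. Its log2 ratio of means was -1.94.

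Slc22a27, another OAT-like gene of the run, had 1.94, 4.71 and 3.42 CPM in PP-MP 1, 2 and 3, against 3.95, 1.87 and 7.24 CPM in control 1, 2 and 3. The PP-MP values lie inside the control range. Its log2 fold change was -0.38 (SE 0.54), and it was 0.22 without control 3. Slc22a27 shares 25.3% of its 50-base stretches with Slc22a29, which is not one of the 9 genes and had 0.0198, 0.626 and 1.13 CPM in PP-MP and 1.17, 2.16 and 0.927 CPM in control. The 4 genes Slc22a27 to Slc22a30 together had 4.36, 10.7 and 14.0 CPM in PP-MP, against 28.9, 25.9 and 28.4 CPM in control. Their neighbour Slc22a26, which shares none of its 50-base stretches with them, had 5.83, 4.82 and 3.21 CPM in PP-MP and 2.23, 1.39 and 4.46 CPM in control.

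**Figure D3:**
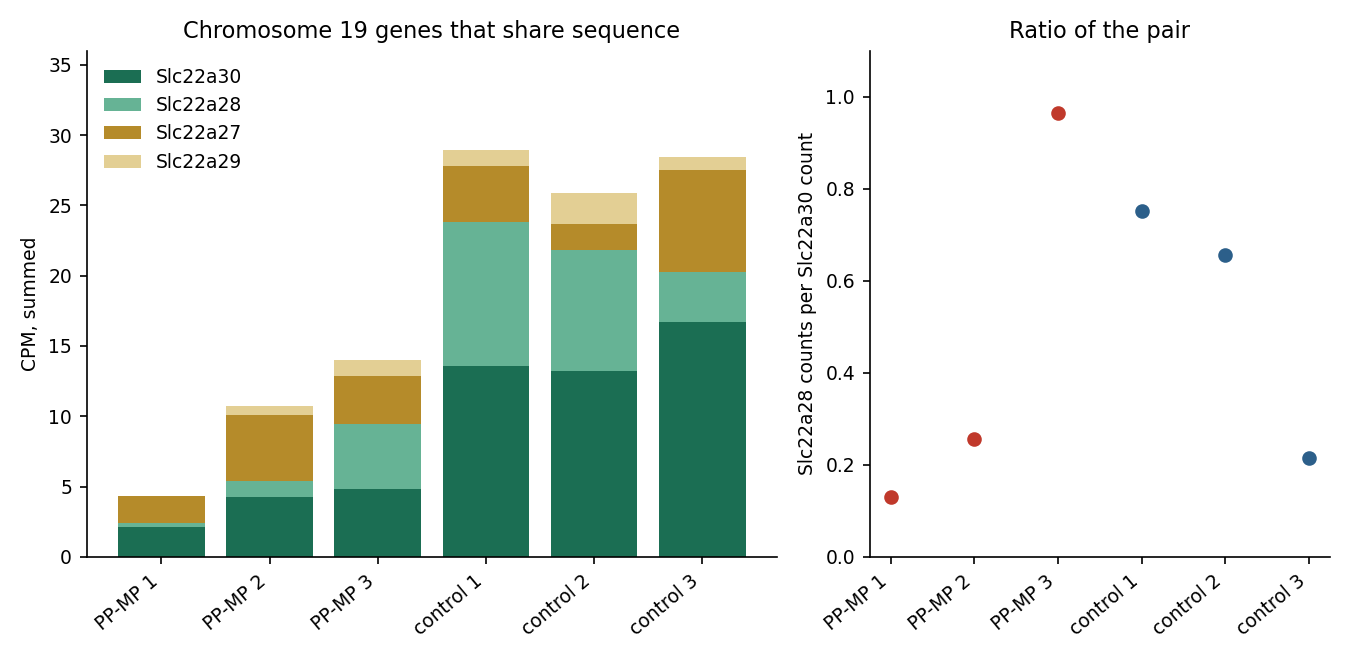
Left, CPM of Slc22a30, Slc22a28, Slc22a27 and Slc22a29 stacked for each library, PP-MP before control. Right, counts on Slc22a28 per count on Slc22a30 in PP-MP (red) and control (blue) libraries. The stacks reach 4.36 to 14.0 CPM in PP-MP and 25.9 to 28.9 CPM in control, while the ratio ranges widely within both diets.

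Slc22a7 encodes OAT2, which in human hepatocytes takes up organic anions and cyclic GMP. It had 9.08, 11.8 and 6.22 CPM in PP-MP 1, 2 and 3, against 6.20, 7.22 and 3.96 CPM in control 1, 2 and 3. The groups overlap, since PP-MP 3 lay below control 2. The means were 9.02 ± 2.77 CPM in PP-MP and 5.79 ± 1.67 CPM in control (SD, n = 3 each), with a log2 fold change of 0.64 (SE 0.32). Slc22a7 was the only one of the 9 with a fitted value above 0 in all 14 alternatives run. When raw library totals set the scale, its groups no longer overlapped, with 9.96, 13.2 and 6.42 CPM in PP-MP and 5.93, 6.36 and 3.68 CPM in control. That scale raised the fold change of each of the 9 genes, and moved the median over all genes from 0.03 to 0.26.

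Slc22a5 encodes OCTN2, the sodium-dependent carnitine transporter. It had 27.9, 62.0 and 60.5 CPM in PP-MP 1, 2 and 3, against 43.8, 43.0 and 47.5 CPM in control 1, 2 and 3. PP-MP 1 lay below every control library while PP-MP 2 and 3 lay above every one. The means were 50.1 ± 19.2 CPM and 44.8 ± 2.41 CPM in PP-MP and control (SD, n = 3 each), and the log2 fold change was 0.16 (SE 0.30). Without PP-MP 1 it was 0.45. Slc22a5 shares 26.1% of its 50-base stretches with its chromosome 11 neighbour Slc22a21, a carnitine transporter of mice, so part of its count is uncertain.

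Genes that make and use carnitine were read beside Slc22a5. Of 9 listed genes in the table all were tested, with a median log2 fold change of -0.08, 5 below 0 and 4 above. edgeR called 0 of them, with 0 at an unadjusted p under 0.05, against 8.05% of all genes higher and 5.81% lower. DESeq2 called 0, against 2.39% of all genes called higher and 1.87% called lower. Every one of the 9 overlapped between the diets, so none is named. Of all genes tested, 22.0% did not overlap, counting both directions.

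Slc22a3 encodes OCT3, a low-affinity carrier of monoamines and other organic cations. It had 4.64, 14.4 and 9.65 CPM in PP-MP 1, 2 and 3, against 8.38, 6.29 and 13.8 CPM in control 1, 2 and 3. The PP-MP range covered the control range. The log2 fold change was 0.01 (SE 0.46), with -0.41 to 0.40 when single libraries were left out. In GENCODE M21 an exon of Slc22a3 overlaps an exon of Plg on the opposite strand, and 8.27% of its 50-base stretches occur in transcripts of other genes, Plg first. Plg, the plasminogen gene, was at 1856 ± 252 CPM in PP-MP and 1760 ± 196 CPM in control (SD, n = 3 each). The library kit marks strand, but the sources used here do not say whether the counting used it, so the Slc22a3 count is uncertain.

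Monoamine breakdown and transport genes were read beside Slc22a3. Of 7 tested the median log2 fold change was -0.33, with 4 below 0 and 3 above. edgeR called 0, with 3 lower and 1 higher at an unadjusted p under 0.05, against 5.81% of all genes lower and 8.05% higher, and DESeq2 called 0. The 1 higher gene had a mean under 1 CPM and falls outside the naming rule. Maoa, a mitochondrial monoamine oxidase, was at 8.41 ± 1.67 CPM in PP-MP and 12.1 ± 1.02 CPM in control (SD, n = 3 each). Slc18a1, a vesicular monoamine carrier, was at 3.99 ± 0.547 CPM in PP-MP and 5.71 ± 0.975 CPM in control.

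Slc22a18 is an imprinted gene, expressed mainly from the maternal copy, with no settled substrate. It had 48.0, 60.0 and 68.7 CPM in PP-MP 1, 2 and 3, against 86.5, 60.5 and 112 CPM in control 1, 2 and 3. PP-MP 3 lay above control 2 and the groups overlap. The log2 fold change was -0.55 (SE 0.25), and it ranged from -0.74 to -0.30 when single libraries were left out. Slc22a18 had the highest mean CPM of the 9. The genes whose log2 CPM followed it most closely over the 6 libraries, among 6442 genes with a mean of at least 10 CPM, were Pgpep1 (Pearson r = 0.995), Cox8a (0.995) and Atox1 (0.994), as a description of libraries that share the diets and the scaling.

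Slc22a18 lies between Cdkn1c and Phlda2 in the imprinted Kcnq1 cluster, and Slc22a3 in the Igf2r cluster. Of 18 tested genes listed for these clusters and their surroundings, 11 were below 0 and 7 above, with a median of -0.22. edgeR and DESeq2 each called 0. At an unadjusted edgeR p under 0.05, 3 were higher and 3 lower, against 8.05% and 5.81% of all genes. Kcnq1ot1, the non-coding RNA that silences genes of its cluster on the paternal copy, was at 18.2, 10.6 and 15.8 CPM in PP-MP 1, 2 and 3, against 4.70, 10.4 and 5.07 CPM in control. Cd81, a tetraspanin of the same region, was at 153 ± 26.8 CPM in PP-MP and 240 ± 47.8 CPM in control, and Cars, a cysteinyl-tRNA synthetase, at 13.4 ± 1.20 and 17.9 ± 3.16 CPM (SD, n = 3 each).

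Slc22a15, whose human counterpart carries zwitterions such as carnosine, had 9.50, 16.5 and 13.9 CPM in PP-MP 1, 2 and 3, against 19.3, 16.8 and 20.5 CPM in control 1, 2 and 3. All PP-MP libraries lay below all control libraries, PP-MP 2 and control 2 by a narrow margin. The log2 fold change was -0.51 (SE 0.22). With library totals the groups overlapped.

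Slc22a23, an orphan carrier with no established substrate, had 49.8, 72.2 and 71.4 CPM in PP-MP 1, 2 and 3, against 68.1, 52.5 and 70.2 CPM in control 1, 2 and 3. The groups overlap, since PP-MP 1 lay below every control library while PP-MP 2 and 3 lay above every one. The means were 64.4 ± 12.7 CPM in PP-MP and 63.6 ± 9.69 CPM in control (SD, n = 3 each), and the log2 fold change was 0.02 (SE 0.20).

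PP-MP 1 held the lowest value of all 6 libraries for 7 of the 9 genes, against 22.9% of all genes tested. The exceptions were Slc22a7, lowest in control 3, and Slc22a27, lowest in control 2. The acute-phase, Kupffer cell and neutrophil sums were all largest in PP-MP 1, and their part in these low values was not tested. Without it the log2 fold changes were -1.68 for Slc22a30, -1.38 for Slc22a28, -0.42 for Slc22a18 and -0.32 for Slc22a15.

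**Figure D4:**
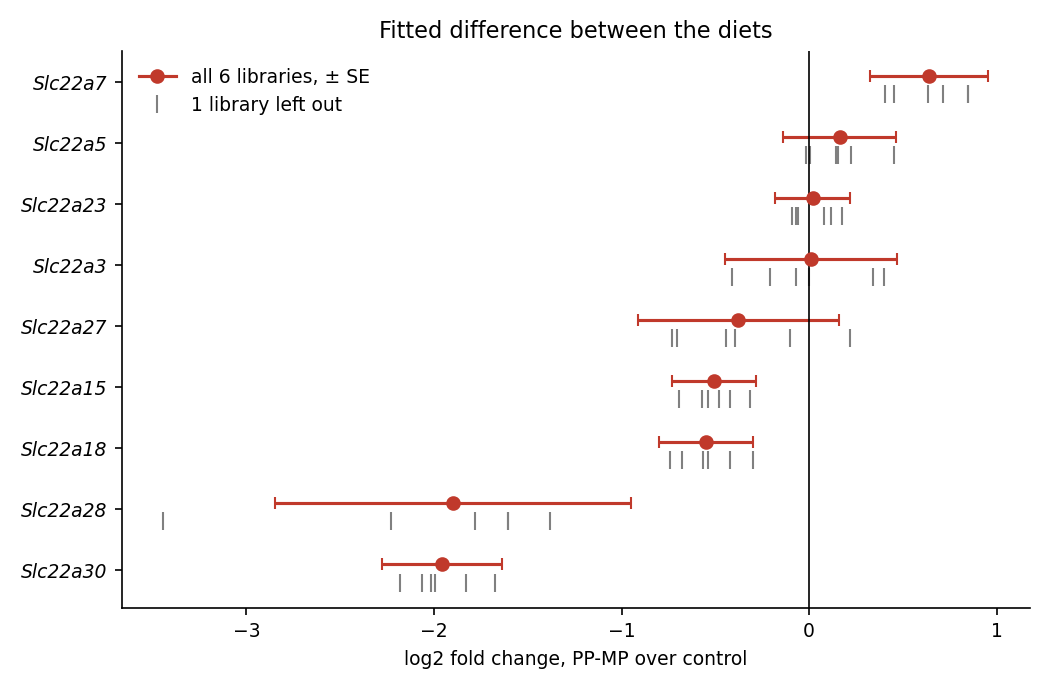
Fitted log2 fold change, PP-MP over control, of each transporter with its SE (red), and the value with each library left out in turn (grey ticks). Slc22a30 and Slc22a28 lie near -2, Slc22a28 with 1 tick at -3.45, and Slc22a3, Slc22a5, Slc22a23 and Slc22a27 have ticks on both sides of 0.

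The rest of the family gave no call. Of 17 other listed Slc22 genes 16 were in the table and 6 were tested, with 4 fitted above 0, 2 below and a median of 0.30. The list leaves out Slc22a13b, which was also tested, at 0.188, 0.176 and 0.290 CPM in PP-MP 1, 2 and 3 and 0, 0.149 and 0 CPM in control 1, 2 and 3. With it, 5 of 7 were above 0 and the median was 0.57. edgeR called 0 and DESeq2 called 0. At an unadjusted edgeR p under 0.05, 1 gene was higher, against 8.05% of all genes. That gene, Slc22a17, fell outside the naming rule and was at 0.743 ± 0.195 CPM in PP-MP and 0.335 ± 0.0835 CPM in control. Slc22a4, encoding the zwitterion carrier OCTN1, was at 2.90 ± 0.228 CPM in PP-MP and 2.85 ± 0.722 CPM in control. Slc22a21 was at 3.43, 5.85 and 6.89 CPM in PP-MP and at 4.95, 0.199 and 5.71 CPM in control, with control 2 far below the rest. Slc22a2, Slc22a6, Slc22a16 and Slc22a20 had 0 counts in all 6 libraries.

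Other carriers of the liver were described from fixed lists. Of 22 uptake carriers tested, 11 were below 0 and 11 above, with a median of -0.02, and edgeR and DESeq2 each called 0. At an unadjusted edgeR p under 0.05, 2 were higher and 1 lower, against 8.05% and 5.81% of all genes. Slc17a2, a phosphate and anion carrier, was at 71.1 ± 15.9 CPM in PP-MP and 36.1 ± 12.6 CPM in control. Slc10a2, the ileal-type bile acid carrier, was at 6.35 ± 4.41 and 2.35 ± 0.393 CPM. Slc16a10, an aromatic amino acid carrier, was at 67.5 ± 6.34 and 81.3 ± 3.20 CPM (SD, n = 3 each). The last of these is not the one counted as lower above. Of 19 efflux pumps tested, 11 were below 0 and 8 above, with a median of -0.05. edgeR called 0, with 3 lower at an unadjusted p under 0.05, against 5.81% of all genes. DESeq2 called 2, both lower, against 1.87% of all genes. These were Abcg2, a multidrug pump at 38.7 ± 7.66 CPM in PP-MP and 64.6 ± 10.6 CPM in control, and Abcc4, a basolateral anion pump at 1.75 ± 0.486 and 4.69 ± 2.55 CPM. Abcc3, another basolateral pump for organic anions, was at 237 ± 82.1 CPM in PP-MP and 443 ± 67.8 CPM in control and missed the threshold of both tools.

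Transcription factors known to control liver carriers were listed too. Of 22 tested, 13 were above 0 and 9 below, with a median of 0.01. edgeR called 0, with 4 higher at an unadjusted p under 0.05, against 8.05% of all genes. DESeq2 called 2, both higher, against 2.39% of all genes. Cux2, a factor known for its higher level in female mouse liver, was at 5.64, 1.31 and 3.41 CPM in PP-MP 1, 2 and 3, against 0.193, 0.216 and 0.296 CPM in control. Esr1, the oestrogen receptor, was at 16.2 ± 7.38 CPM in PP-MP and 7.45 ± 0.993 CPM in control (SD, n = 3 each), and these were the 2 that DESeq2 called.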

How the data were processed

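The authors deposited raw read counts per gene symbol, 56674 rows for 6 liver libraries, and per-sample files identical to the columns. The submitters' processing notes name bcl2fastq and the genome build GRCm39. No source used here names the aligner, counter, annotation, strand setting or handling of reads with several matches. Per the labels' protocols, libraries were directional and poly(A)-selected.

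Genes were filtered with filterByExpr by group (18284 kept), scaled with TMM factors and fitted without a block in edgeR 4.0.16 by its quasi-likelihood F test with robust dispersions (R 4.3.3, limma 3.58.1), two-sided, with Benjamini-Hochberg adjustment at 0.05. SEs come from the fold change and its F statistic. Alternatives were DESeq2 1.42.0, limma-voom, other scalings and filters, a replicate block and left-out libraries. Log2 CPM used a prior count of 2. The procedure was tested on simulated data. RPKM, 50-base sharing and open reading frames used GENCODE M21 (GRCm38), and promoters RefSeq GRCm38.p6, in Python 3.11.15 with pandas 2.3.3, NumPy 2.4.6 and Biopython 1.88. No coordinates of the count table are given, since its build is GRCm39.

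The members, lists and motifs were chosen with earlier results of these data known, and the sums over copies after values were seen. Named genes are the 9 transporters, other Slc22 genes with a mean of at least 1 CPM, and per other list up to 3 genes of smallest unadjusted p with a mean of at least 1 CPM and no overlap; some genes that this rule names, and 1 motif, are not reported here. Depth is 68357478 counts or more per library, and counting error is small beside the spread between libraries except at low counts.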

Additional observations from a re-analysis of the deposited data

How the results depend on the processing

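Over all genes, the 2 calls of edgeR became 777 with the DESeq2 test, 1 with library totals, 1 with limma-voom and 0 with the replicate block, and 0 to 92 when single libraries were left out (92 without control 2). Same-numbered libraries deviated with correlations of -0.0662, -0.0872 and 0.0470, so the numbers give no sign of pairing. Library totals moved the median of all genes from 0.03 to 0.26 (log2) and raised the fold change of each of the 9 transporters. Of the 9 transporters, Slc22a7, Slc22a15, Slc22a18, Slc22a28 and Slc22a30 kept the sign of their fold change in 14 alternatives, while Slc22a3 turned sign in 7, Slc22a23 in 5, Slc22a5 in 1 and Slc22a27 in 1. The number higher in every PP-MP library was 0, against 12.2% of all genes tested. It was 1 with library totals, 3 without control 2 and PP-MP 1 together, and 0 to 2 with single libraries left out. The number lower in every PP-MP library was 2, against 9.79% of all genes tested. It was 1 with library totals and 2 to 4 with single libraries left out. Shares over all genes were not counted under these alternatives, and groups of fewer libraries separate more easily. Nothing is read from these numbers. DESeq2 called 2 efflux pumps, 2 transcription factors and 2 acute-phase genes where edgeR called 0. The cause of these shifts was not tested, apart from fewer libraries where some were left out. Slc22a28 in PP-MP 1 rests on 28 counts.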
